A study of Mus musculus with 6 samples.

Results

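The respiratory chain genes described here are the 90 genes, of 18193 with a probe set of their own on the array, whose platform symbol begins with Nduf, Uqcr, Atp5, Cox4, Cox5, Cox6, Cox7 or Cox8, or is Sdha, Sdhb, Sdhc or Sdhd. By symbol they comprised 36 genes of complex I, 8 complex I assembly factors (Ndufaf genes), 4 of complex II, 8 of complex III, 17 of complex IV and 17 of complex V. RNA was measured in epidermal basal cells of female C57BL/6 mice aged 10 weeks, and the 3 groups held cells of ventral skin from virgin mice, of dorsal skin at 16 days post coitum (dpc) and of ventral skin at 16 dpc, with 2 arrays each. Cells were taken from trypsin-digested whole skin as α6-integrin-positive cells that excluded propidium iodide. No further gate was described, so other α6-integrin-positive cells may be included. The comparisons asked how ventral basal cells of pregnant mice differed from those of virgin mice, and how ventral cells differed from dorsal cells of pregnant mice. Dorsal cells at 16 dpc were set against virgin ventral cells as context, a comparison in which both site and state differ.

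The respiratory chain of the inner mitochondrial membrane passes electrons from NADH (through complex I) and succinate (through complex II) to complex III and, by way of cytochrome c, to complex IV, which reduces oxygen. Complexes I, III and IV pump protons, and complex V, the ATP synthase, uses the resulting gradient to make ATP. Most subunits are encoded in the nucleus and joined to a small core encoded by mitochondrial DNA. Several complex IV subunits have paired isoforms, one used in most tissues and another in muscle, brown fat, lung or testis.

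Signals are MAS5 intensities on a linear scale, each with a detection call of present, marginal or absent, and 1 probe set stood for each gene. Signals of different probe sets were not compared in level. With 2 arrays a group every value is imprecise. The labels do not say that the arrays came from separate animals, so the p-values cover the spread among these samples alone, and that spread may be technical. Between 47.2% and 53.3% of 45101 probe sets were called present per array. The actin 3′ to 5′ ratio, a sign of RNA quality, was 3.90 and 4.47 on replicate 2 of the ventral and dorsal 16 dpc groups and 1.78 to 2.46 on the other 4 arrays. All 6 basal keratinocyte markers (Krt5, Krt14, Itga6, Itgb4, Col17a1 and Trp63) were present on every array, with a summed signal of 110702 to 157268 over the arrays. All 5 spinous keratinocyte markers were present on every array too. Their summed signal was 105630 to 105976 in virgin ventral, 91387 to 108630 in 16 dpc dorsal, and 88609 to 96055 in 16 dpc ventral cells. The ventral 16 dpc sums thus lay below both virgin sums. The summed signal of 6 markers of Langerhans and other antigen-presenting cells (all present on at least 1 array) was 2138 to 3478 in virgin ventral, 5230 to 6217 in 16 dpc dorsal, and 4860 to 6883 in 16 dpc ventral cells. That of 5 epidermal T cell markers, of which Cd3d and Cd3e were present on no array, was 658 to 659, 1774 to 2808, and 3502 to 4563 in the same order. Most of this sum was Thy1 (402 and 457 in virgin, 3086 and 4216 in ventral 16 dpc cells), while Cd3g and Ptprc had lower means in ventral than in dorsal 16 dpc cells (log2 fold change -0.45 and -0.29). The summed signal of 7 mammary epithelium markers (Lalba present on no array) was 751 and 1119 in virgin ventral, 454 to 704 in dorsal, and 8218 and 1150 in ventral 16 dpc cells. The milk protein gene Csn2 gave 6185 on ventral 16 dpc replicate 1 and 699 on replicate 2, whereas Krt8 and Krt18 lay lower on all 4 arrays of pregnant mice than on both virgin arrays. Markers of fibroblasts (6 genes), with Col1a2, Lum and Pdgfra present on no array, summed to 267 to 437 in virgin, 160 to 176 in dorsal and 190 to 193 in ventral 16 dpc cells. The part of all these cells in the values that follow was not tested, and in sorted pools fewer cells of a type and less RNA per cell cannot be told apart.

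Most respiratory chain genes were detected in the basal cells, and their signals varied less over the arrays than those of all genes tested. Of the 90 genes, 82 were called present on all 6 arrays and 3 on none, and 85 were present on both arrays of 1 or more groups and entered the fit among 10993 genes. Over the 6 arrays the highest signal of a gene was a median of 1.36 times its lowest among the 85, against 1.52 times among all genes tested. The ratio stayed under 1.5 for 62 of the 85 (72.9%, against 47.8% of all genes). The members were not matched to all genes by signal level, and the part of signal level in this difference was not tested. At the even end stood Ndufa8 of complex I (1.11 times), Cox8a of complex IV (1.12 times) and Atp5g3 of the ATP synthase membrane ring (1.13 times). The widest ranges were those of Ndufa4l2 (5.67 times), the low-level probe set of Ndufb4 (4.74 times) and Atp5md (3.24 times).

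No respiratory chain gene passed limma's test after Benjamini-Hochberg adjustment over all 10993 genes in 16 dpc ventral over virgin ventral cells (0 of 85, against 0.2% of all genes, 22 of them) or in 16 dpc ventral over 16 dpc dorsal cells (0 of 85, against 0.0819%, 9 genes). None passed in 16 dpc dorsal over virgin ventral cells either (0 of 85, against 0% of all genes). At an unadjusted p under 0.05 in limma, 8 members stood out over virgin cells (7 higher, 1 lower, or 9.41% against a background of 11.6%), 2 over dorsal cells (both higher, 2.35% against 5.09%) and 2 in dorsal 16 dpc over virgin cells (1 higher, 1 lower, 2.35% against 7.27%). The members' shares were thus below those of all genes. These counts moved in all 3 comparisons when 1 array was left out. The shares of all genes were not taken there, so the moved counts are not given.

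As a group the genes lay slightly above all genes in pregnant ventral cells. Over virgin cells the mean log2 signal was higher for 67 of 85 members (78.8%, against 53.0% of all genes), with a median log2 fold change of 0.17 against 0.02. Over dorsal cells it was higher for 58 of 85 (68.2%, against 43.3%), with a median of 0.05 against -0.03, and in dorsal 16 dpc over virgin cells for 64 of 85 (75.3%, against 60.2%), with a median of 0.14 against 0.07. These comparisons share arrays (virgin or ventral 16 dpc), so they are not separate evidence. Within replicate numbers 1 and 2 the median over virgin cells was 0.08 and 0.29, and over dorsal cells 0.04 and 0.06. The array of highest median deviation from each gene's own mean was ventral 16 dpc replicate 2 (0.14 on the log2 scale), one of the 2 arrays of high actin ratio, and the lowest was virgin replicate 2 (-0.14). Without both 16 dpc arrays of high actin ratio, the median over virgin cells was 0.11 and that over dorsal cells 0.04.

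**Figure D1:**
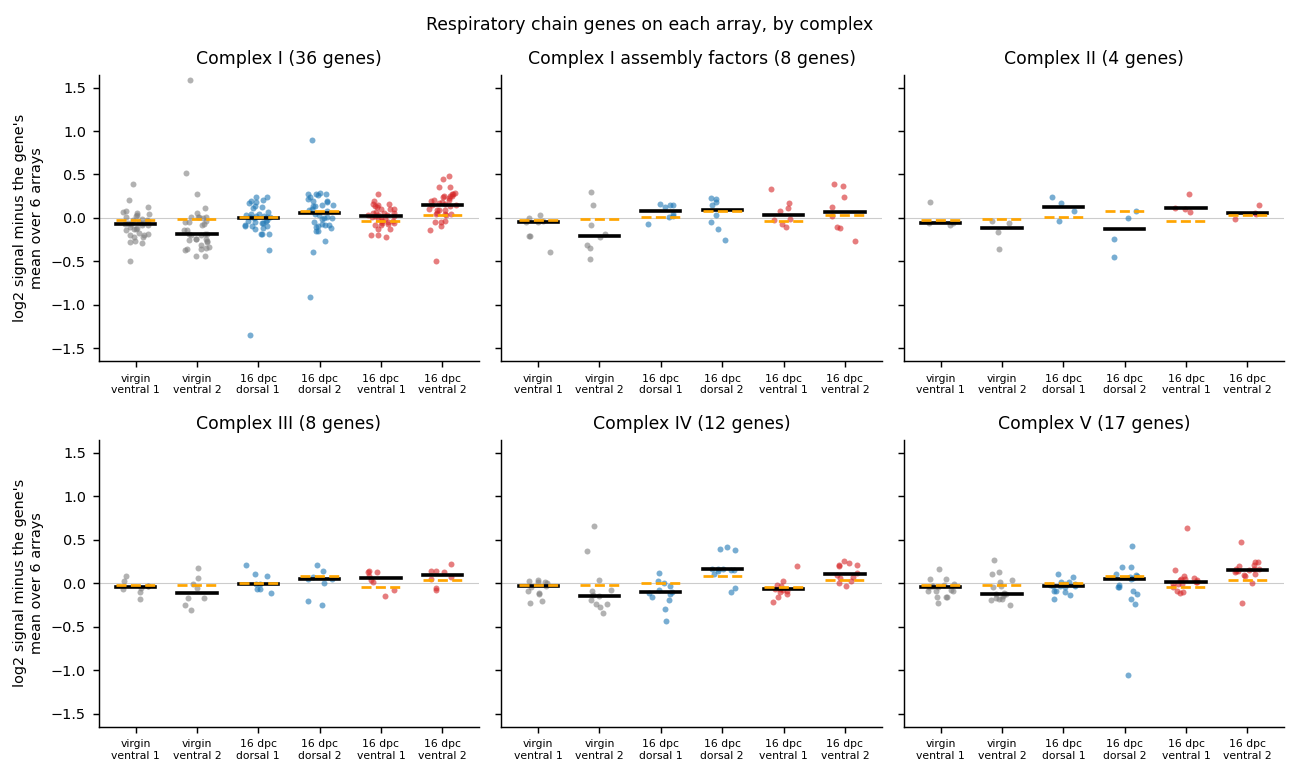
Each point is 1 respiratory chain gene on 1 array, as its log2 signal minus the gene's mean over 6 arrays (vertical axis); the 6 arrays of 3 groups lie along the horizontal axis, with 1 panel for each complex. Black bars are the median of the panel's genes and dashed orange bars that of all genes tested. The virgin arrays have the lowest medians in complexes I and III, and in complex IV both arrays numbered 2 at 16 dpc lie above those numbered 1.

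Signals of both ventral 16 dpc arrays lay above both virgin arrays for 45 of the 85 genes (52.9%, against 23.8% of all genes) and below both for 4 (4.71%, against 19.8%), namely Ndufa4l2, Ndufa6, Ndufaf3 and Ndufb4. Against dorsal 16 dpc arrays the groups separated upward for 17 genes (20.0%, against 13.1%) and downward for 7 (8.24%, against 19.7%). The 95% interval of the fold change lay within 1.5-fold in either direction for 47 of 85 genes over virgin cells and for 63 over dorsal cells, and within 2-fold for 79 and 81. For the other members the interval also held larger differences, so a value near 0 does not show that the groups were alike.

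**Figure D2:**
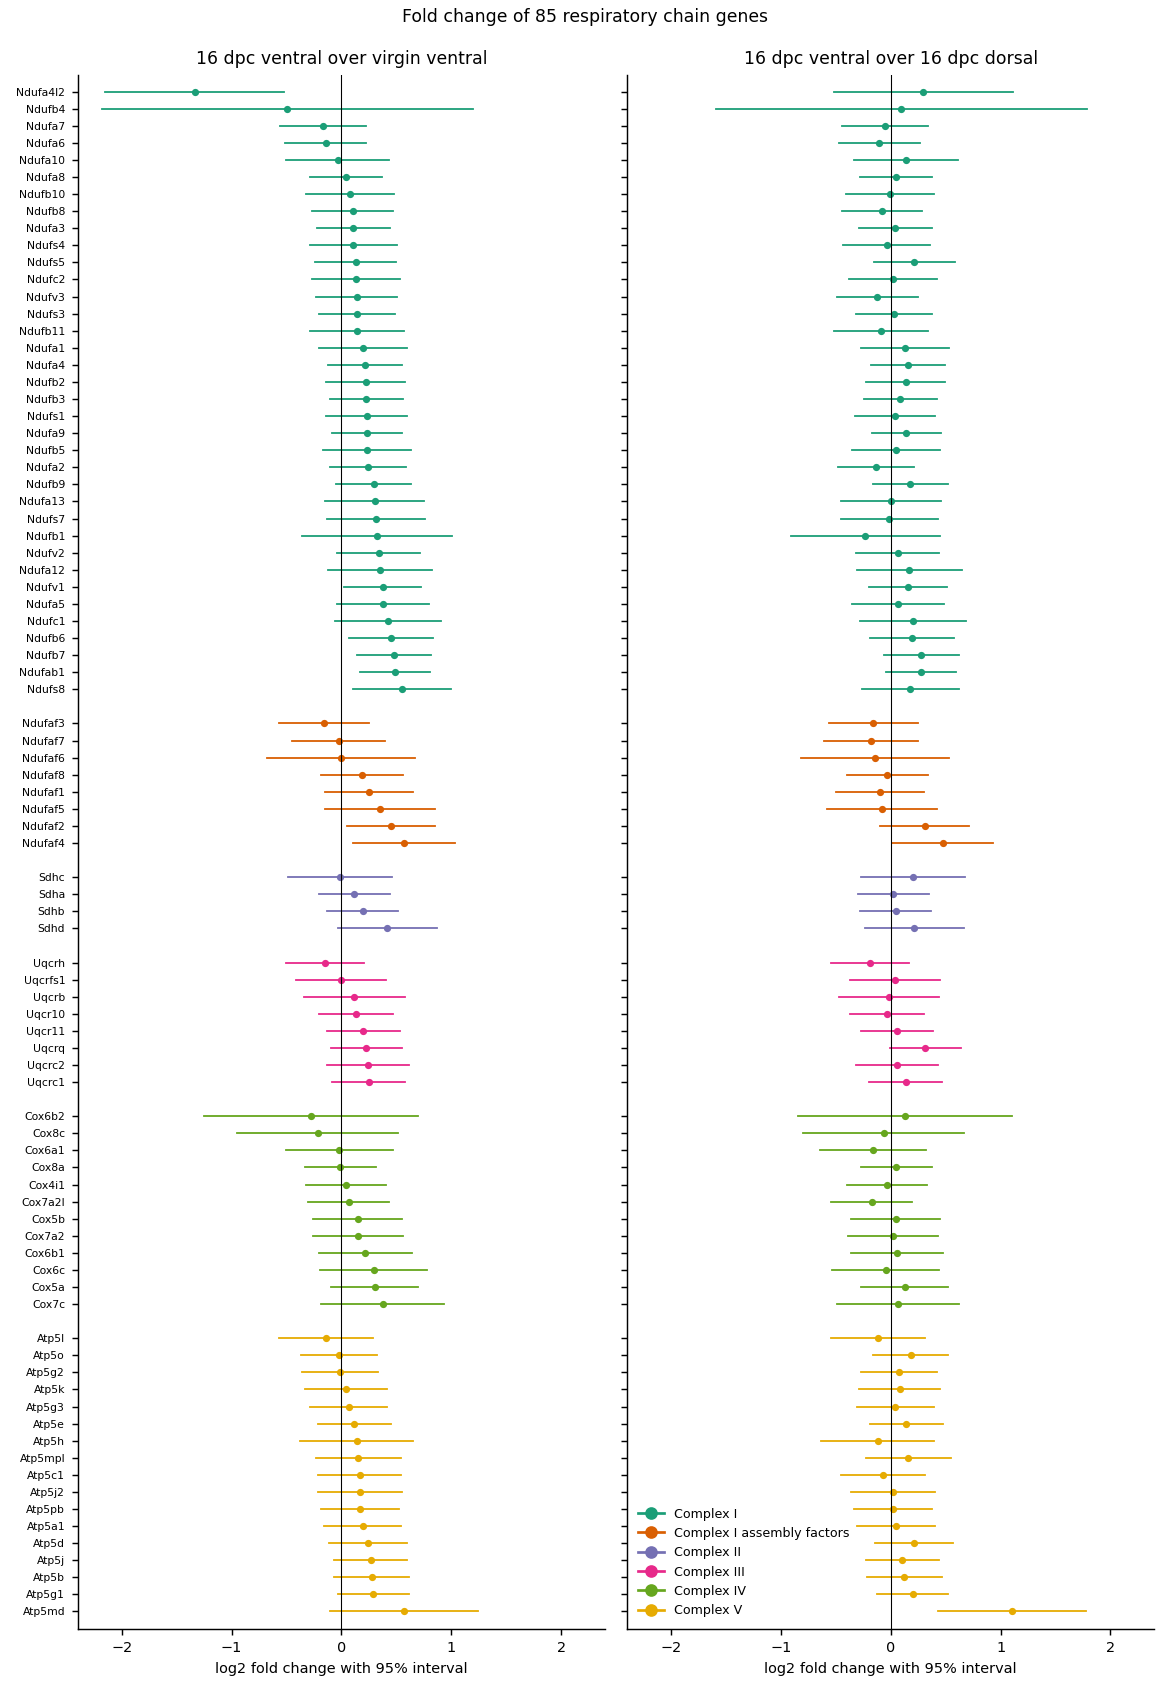
Log2 fold change (horizontal axis) of each of the 85 respiratory chain genes tested (rows, grouped and coloured by complex), with points for the estimate and lines for its 95% interval, in 16 dpc ventral over virgin ventral cells (left) and over 16 dpc dorsal cells (right). Most points lie between 0 and 0.5 on the left and closer to 0 on the right, with Ndufa4l2 (-1.34, left) and Atp5md (1.10, right) apart.

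The promoters of these genes are shown because nuclear respiratory genes are known for sites of NRF1, ETS-family factors and YY1 near the start site. RefSeq promoters (GRCm38.p6, 250 bases before to 50 after the start) were matched by symbol for 74 of the 90 genes. Both strands were searched. The NRF1 letters GCGCATGCG or GCGCACGCG were found for 14 of 74 members (18.9%), against 5.17% of 17491 genes with a promoter and 8.55% of 8701 such genes that entered the fit. On its reverse strand the first of these reads CGCATGCGC and overlaps itself, so that 1 palindromic stretch can give 2 matches. YY1 letters (AAGATGGCG) were found for 7 members (9.46%, against 2.14% and 3.71%) and ETS letters (CCGGAAGT) for 5 (6.76%, against 5.69% and 9.53%). These are matches of letters, not sites shown to be bound. One window of 30 bases for each of complexes I to V and for an assembly factor, with NRF1 letters in capitals and each window read 5′ to 3′ on the gene's strand, is as follows.
Ndufa8, chr2:36049328-36049357, minus strand: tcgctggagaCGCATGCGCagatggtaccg
Ndufaf4, chr4:24897960-24897989, plus strand: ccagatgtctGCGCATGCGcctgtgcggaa
Sdhd, chr9:50603909-50603938, minus strand: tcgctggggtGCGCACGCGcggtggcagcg
Uqcrc1, chr9:108936668-108936697, plus strand: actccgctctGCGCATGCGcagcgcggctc
Cox6a1, chr5:115349100-115349129, minus strand: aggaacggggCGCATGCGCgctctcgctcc
Atp5k, chr5:108434429-108434458, minus strand: ttcactgcggCGCATGCGCctttctggctt
The YY1 letters of Ndufs7 (complex I) and Atp5j2 (complex V), in capitals, lie just after the start site.
Ndufs7, chr10:80249463-80249492, plus strand: ggccgaggccAAGATGGCGgcgctggcggg
Atp5j2, chr5:145191499-145191528, minus strand: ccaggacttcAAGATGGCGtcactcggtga

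Signals of members with and without the NRF1 letters were set side by side, with no test of the difference. Over virgin cells the 14 members with the letters that entered the fit had a median log2 fold change of 0.04, 8 of them with a higher mean, and the 57 without had a median of 0.19, 49 of them higher. Over dorsal cells the medians were 0.07 and 0.05. For the 7 members with YY1 letters the median over virgin cells was 0.23, with all 7 higher, against 0.16 for the 64 without. These are descriptions of small groups, and none of the genes concerned passed the test.

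Complex I, which takes electrons from NADH, had the highest median among the 5 complexes over virgin cells, 0.22 on the log2 scale, with a higher mean for 31 of 36 genes. Over dorsal cells the median was 0.07, with 26 of 36 higher. Its 6 measured core subunits of the hydrophilic arm, which carry the flavin and iron-sulphur clusters or frame them (Ndufs1, Ndufs3, Ndufs7, Ndufs8, Ndufv1 and Ndufv2), were all higher over virgin cells, with a median of 0.32. Within replicates 1 and 2 this median was 0.14 and 0.59, so it was larger between the arrays numbered 2.

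Ndufs8, a carrier of 2 iron-sulphur clusters on the way to the quinone site, had signals of 6155 and 5124 in virgin ventral, 6531 and 8074 in 16 dpc dorsal, and 7132 and 9486 in 16 dpc ventral cells. Both pregnant groups lay above both virgin arrays, and the dorsal and ventral ranges overlapped. The log2 fold change over virgin cells was 0.55 ± 0.20 (SE), with an adjusted p of 0.34 in limma, and its other 4 probe sets present on all arrays gave 0.36 to 0.56. The probe set used is of a type that can also bind related transcripts.

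Ndufv1, which binds the flavin that accepts electrons from NADH, had signals of 4754 and 3940 in virgin ventral, 4954 and 5090 in dorsal, and 5325 and 5905 in ventral 16 dpc cells. Its ventral 16 dpc arrays were the highest of the 6, with a log2 fold change of 0.37 ± 0.16 over virgin cells (limma, adjusted p = 0.41). The partner iron-sulphur subunit Ndufv2 gave 7036 and 5695 in virgin ventral, 7497 and 7810 in dorsal, and 7401 and 8641 in ventral 16 dpc cells, a log2 fold change of 0.34 ± 0.17. Ndufs1, the largest iron-sulphur subunit, and Ndufs7 gave 0.23 ± 0.16 and 0.31 ± 0.20, and for Ndufs7 the virgin and 16 dpc ventral signals overlapped (5317 and 4363 against 5263 and 6798).

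Among the accessory subunits, Ndufab1, the mitochondrial acyl carrier protein that also serves fatty acid and lipoate synthesis, had tight replicates. Signals were 3319 and 3281 in virgin ventral, 3964 and 3668 in dorsal, and 4699 and 4543 in ventral 16 dpc cells. The 3 groups did not overlap, with virgin cells lowest and ventral 16 dpc cells highest. The log2 fold change was 0.49 ± 0.14 over virgin cells (limma, adjusted p = 0.25) and 0.28 ± 0.14 over dorsal cells (limma, adjusted p = 0.9999). Further probe sets of Ndufab1 with lower signals gave values over virgin cells from -0.38 to 0.66.

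Ndufb7, an accessory subunit of the membrane arm, was ordered in the same way, with signals of 3444 and 3648 in virgin ventral, 3881 and 4259 in dorsal, and 4607 and 5284 in ventral 16 dpc cells. No groups overlapped, and the log2 fold change over virgin cells was 0.48 ± 0.15 (limma, adjusted p = 0.27). A second Ndufb7 probe set gave 0.11. Ndufb6, another membrane arm subunit, named after its values were seen, had a log2 fold change of 0.45 ± 0.17 over virgin cells, from signals of 7442 and 7021 against 8945 and 10905, and its second probe set gave -0.02. The higher signal of these 2 subunits was therefore not shared by all their probe sets.

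Ndufa4l2 lay in the opposite direction from most of its complex. It is a hypoxia-induced relative of Ndufa4, a subunit that is now assigned to complex IV and kept here with complex I by its symbol. The probe set used gave 1235 and 2829 in virgin ventral, 729 and 499 in dorsal, and 823 and 667 in ventral 16 dpc cells. All 4 arrays of pregnant mice lay below both virgin arrays, which themselves differed by more than 2-fold. The log2 fold change was -1.34 ± 0.36 in ventral 16 dpc over virgin cells (95% interval -2.15 to -0.52; limma, adjusted p = 0.24) and -1.63 ± 0.36 in dorsal 16 dpc over virgin cells (limma, adjusted p = 0.32). Both comparisons share the virgin arrays, and without virgin replicate 2 the values were -0.74 and -1.03. Between the 16 dpc groups the value was 0.30 ± 0.36, and their signals overlapped. Ndufa4 itself, at 4409 and 5085 in virgin ventral, 5097 and 4776 in dorsal, and 5410 and 5602 in ventral 16 dpc cells, had a log2 fold change of 0.22 ± 0.15 over virgin cells.

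The low signals of the accessory subunits Ndufb1 (107 to 183 over the 6 arrays, present on 5) and Ndufb4 (13.02 to 61.7, present on 5) came with wide intervals. Over virgin cells Ndufb4 gave -0.49 with a 95% interval of -2.18 to 1.20, and nothing can be read from it in either direction. Ndufa2, an accessory subunit named after its values were seen, was the single member higher at an unadjusted p under 0.05 in dorsal 16 dpc over virgin cells, with signals of 8154 and 7790 against 6589 and 5694 (log2 fold change 0.38; limma, adjusted p = 0.66).

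The 8 assembly factors, which build complex I but are not part of the finished enzyme, had a median of 0.22 over virgin cells, with 5 higher, and of -0.09 over dorsal cells, with 2 higher. Ndufaf4, a factor of early assembly, stood above the others. Its signals were 1227 and 864 in virgin ventral, 1209 and 1005 in dorsal, and 1516 and 1544 in ventral 16 dpc cells, so the ventral 16 dpc arrays were the highest of the 6. The log2 fold change was 0.57 ± 0.20 over virgin cells (limma, adjusted p = 0.34) and 0.47 ± 0.20 over dorsal cells (limma, adjusted p = 0.97). A second probe set of Ndufaf4 gave 0.74 over virgin cells. Ndufaf2, a late-stage factor named after its values were seen, gave 0.45 ± 0.18 over virgin cells, from 728 and 743 to 916 and 1104. Ndufaf7, a methyltransferase that acts in assembly, gave -0.03 ± 0.19, with overlapping signals of 522 and 492 against 513 and 482.

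**Figure D3:**
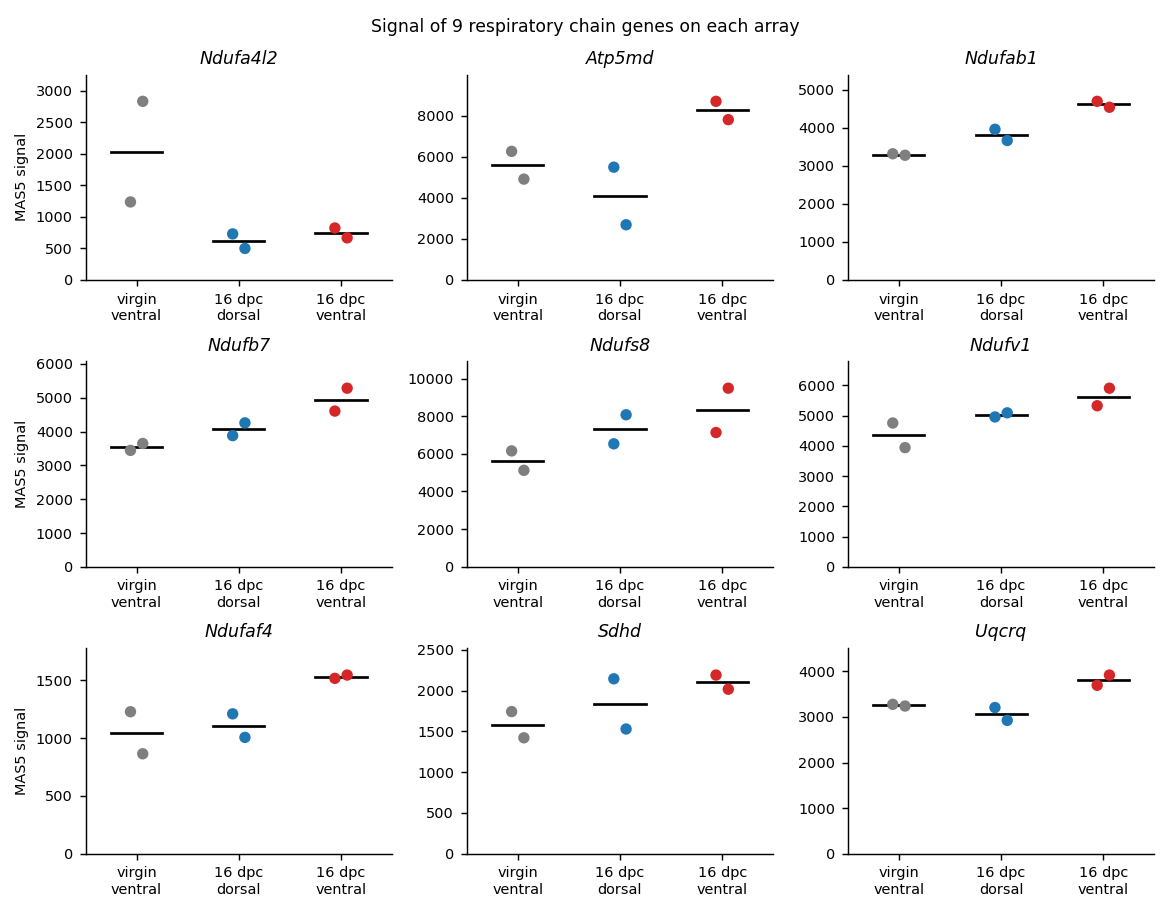
MAS5 signal (vertical axis, linear and starting at 0) of 9 respiratory chain genes on each of 2 arrays per group (points), with the group mean as a bar. Ndufa4l2 is lower on all 4 arrays of pregnant mice, Atp5md is lowest on 1 dorsal array, and Ndufab1, Ndufb7, Ndufv1, Ndufaf4 and Uqcrq are highest on both ventral 16 dpc arrays.

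Complex II, succinate dehydrogenase, which also works in the citric acid cycle, had a median of 0.15 over virgin and of 0.12 over dorsal cells for its 4 genes. Sdha, the flavoprotein, varied least over the arrays among them, with 3171 and 3210 in virgin ventral, 3265 and 3540 in dorsal, and 3606 and 3315 in ventral 16 dpc cells (0.12 ± 0.14 over virgin cells, 95% interval -0.21 to 0.44). Sdhb, the iron-sulphur subunit, gave 0.19 ± 0.14. The membrane anchor Sdhd gave 1742 and 1421, 2144 and 1529, and 2190 and 2016 in the same group order, a log2 fold change of 0.42 ± 0.20 over virgin cells (limma, adjusted p = 0.46). The dorsal arrays differed from each other by about as much as the ventral groups did. The second anchor, Sdhc, gave -0.01 ± 0.21 over virgin cells, and its lowest signal, 1941, was on dorsal replicate 2, an array of high actin ratio.

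Complex III, which hands electrons from ubiquinol to cytochrome c, had a median of 0.16 over virgin cells, with 6 of 8 genes higher, and of 0.05 over dorsal cells, with 5 higher. The core subunits Uqcrc1 and Uqcrc2 gave 0.25 ± 0.15 and 0.24 ± 0.16 over virgin cells, each with both ventral 16 dpc arrays above both virgin arrays. Signals of Uqcrc1 were 9502 and 8802 in virgin ventral, 9515 and 10279 in dorsal, and 10886 and 10843 in ventral 16 dpc cells. The Rieske iron-sulphur protein Uqcrfs1 gave 0.00 ± 0.18 over virgin cells with overlapping groups (3923 and 4173 against 4228 and 3855). Uqcrq, a small subunit, had 3277 and 3240 in virgin ventral, 3206 and 2925 in dorsal, and 3695 and 3919 in ventral 16 dpc cells. Its ventral 16 dpc arrays were the highest of the 6, with log2 fold changes of 0.22 ± 0.14 over virgin and 0.31 ± 0.14 over dorsal cells (limma, adjusted p = 0.9999). A second Uqcrq probe set of low signal, present on all 6 arrays, gave -0.21 over virgin and -0.26 over dorsal cells. Uqcrh, the hinge protein that helps bind cytochrome c, was the lowest of the complex in both comparisons, at -0.15 ± 0.16 and -0.19 ± 0.16.

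Complex IV, cytochrome c oxidase, had the lowest median of the complexes in both ventral comparisons, 0.11 over virgin cells (8 of 12 genes higher) and 0.03 over dorsal cells (7 of 12). Over virgin cells its median differed in sign between replicate numbers, -0.04 within replicate 1 and 0.30 within replicate 2. On dorsal and ventral 16 dpc arrays its median deviation was -0.11 and -0.07 for replicate 1 and 0.16 and 0.10 for replicate 2. For all genes tested it was 0.005 and -0.04, and 0.08 and 0.04, in the same order. The 16 dpc arrays numbered 2 were those of high actin ratio, and the part of RNA quality in this was not tested. Cox4i1, a subunit that takes part in regulation by ATP, gave 18477 and 17211 in virgin ventral, 17891 and 19609 in dorsal, and 17433 and 19272 in ventral 16 dpc cells, with all groups overlapping (0.04 ± 0.16 over virgin cells, 95% interval -0.32 to 0.40). Cox5a gave 0.30 ± 0.17, Cox6c 0.29 ± 0.21 and Cox6b1 0.22 ± 0.19 over virgin cells. Cox7c had the highest value of the complex, 0.37 ± 0.25, at a low signal of 181 to 264 over the 6 arrays, and a second Cox7c probe set of still lower signal gave -0.82. Cox7a2l gave 0.06 ± 0.16 over virgin and -0.17 ± 0.16 over dorsal cells. Its further probe sets gave -0.11 and -0.23 over virgin and -0.28 and -0.29 over dorsal cells.

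Where complex IV has an isoform for most tissues and another for muscle or brown fat, the basal cells held the former. Cox6a1, Cox7a2 and Cox8a were present on all 6 arrays. Their partners of heart, skeletal muscle or brown fat were not: Cox6a2 and Cox8b were present on no array and Cox7a1 on 1 dorsal array, with signals of at most 104, 52.3 and 38.9. The skeletal muscle markers likewise were present on no array for 8 of 11 genes, and of 8 adipocyte markers Adipoq, Cidec, Lep, Car3 and Ucp1 were present on none. The other 3 genes of the adipocyte list were present, Elovl3 on 6 arrays (signals of 149 to 624), Cidea on 5 (82.4 to 350.2) and Fabp4 on 5 (14.1 to 293). Which cells these 3 signals came from was not tested. Cox4i2, the isoform of lung, was present on 1 dorsal and 1 ventral 16 dpc array, both numbered 2, and on no virgin array, with signals of 14.7 to 62.7. Of the testis isoforms, Cox7b2 was present on no array, Cox8c on 3 (1 virgin and both ventral 16 dpc) and Cox6b2 on all 6 at signals of 60.2 to 117. Cox6b2 gave -0.28 ± 0.43 over virgin cells, and Cox8c -0.22 ± 0.32, neither beyond its error.

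**Figure D4:**
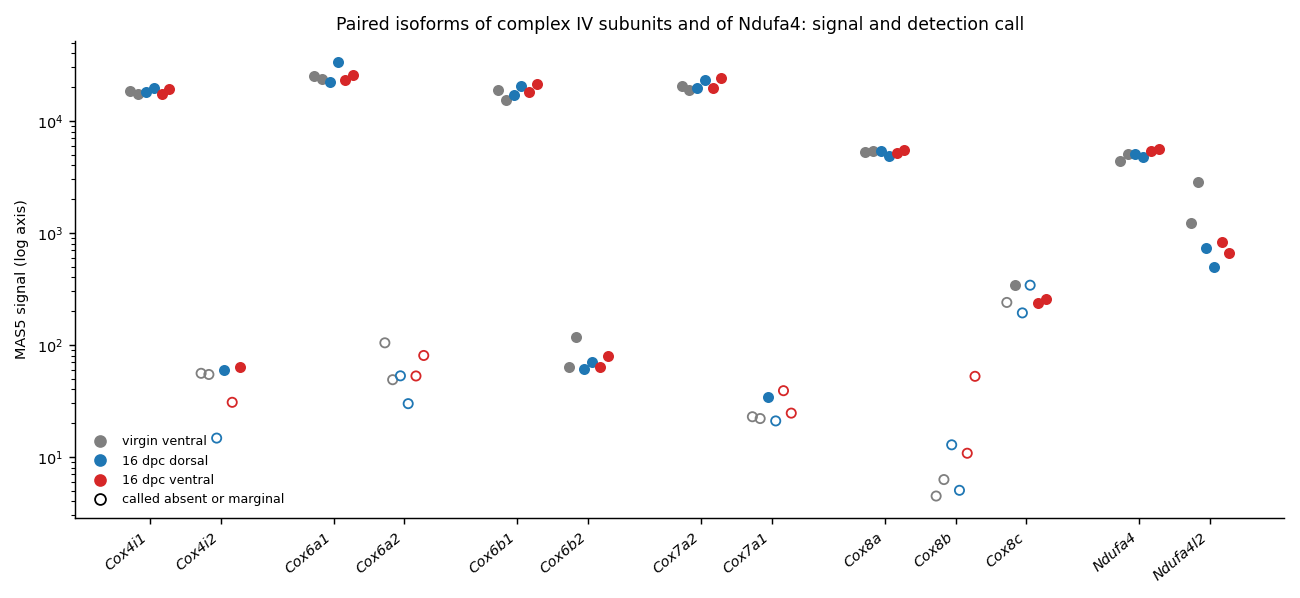
MAS5 signal (vertical axis, logarithmic) of paired isoforms on the 6 arrays, with filled points for calls of present and open points for absent or marginal, in grey for virgin ventral, blue for 16 dpc dorsal and red for 16 dpc ventral cells. The isoforms of most tissues are filled throughout, and Cox6a2 and Cox8b are open throughout; levels of different probe sets are not to be compared.

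Complex V, the ATP synthase, had a median of 0.16 over virgin cells, with 14 of 17 genes higher, and of 0.08 over dorsal cells, also with 14 of 17. The catalytic subunits had even signals. Atp5b, the β subunit that makes ATP, gave 12824 and 13110 in virgin ventral, 13990 and 14762 in dorsal, and 15911 and 15437 in ventral 16 dpc cells, with the groups in that order and none overlapping (0.27 ± 0.15 over virgin, 95% interval -0.06 to 0.61). Atp5a1, the α subunit, gave 0.19 ± 0.16. Atp5d of the central stalk and Atp5g1 of the membrane ring gave 0.24 ± 0.16 and 0.29 ± 0.14 over virgin cells and 0.21 ± 0.16 and 0.20 ± 0.14 over dorsal cells, each with both ventral 16 dpc arrays the highest of the 6. A second Atp5d probe set present on all 6 arrays gave 0.003 over virgin and 0.10 over dorsal cells. For Atp5g1 a second probe set of low signal gave -0.02 and 0.17.

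Atp5md, a small membrane subunit that steadies ATP synthase dimers, had the largest value of any member between ventral and dorsal 16 dpc cells. Its signals were 6260 and 4908 in virgin ventral, 5489 and 2686 in dorsal, and 8695 and 7803 in ventral 16 dpc cells. The ventral 16 dpc arrays were the highest of the 6, and dorsal replicate 2, with the highest actin ratio, was the lowest. The log2 fold change over dorsal cells was 1.10 ± 0.30 (95% interval 0.43 to 1.77; limma, adjusted p = 0.55). Over the alternatives its adjusted p ran from 0.0319 to 0.9999. Without dorsal replicate 2 the value was 0.59 (limma, adjusted p = 0.71), and without dorsal replicate 1 it was 1.62 and passed (limma, adjusted p = 0.0319), with the lone dorsal array then assumed to vary like the other groups. Over virgin cells the value was 0.57 ± 0.30. Within replicate numbers 1 and 2 the values over dorsal cells were 0.66 and 1.54.

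Further probe sets allowed a check on members measured more than once. For 48 genes, 71 further probe sets were present on all 6 arrays. Their log2 fold change had the same sign as that of the probe set used for 53 of 71 over virgin cells and for 47 of 71 over dorsal cells, with a median difference in size of 0.13 and 0.10. The median of the further probe sets was 0.11 over virgin and 0.06 over dorsal cells. The largest disagreement was that of Cox7c, 1.20 over virgin cells.

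Other nuclear genes of mitochondrial pathways lay alongside the respiratory chain. No gene of 8 lists passed limma's adjusted threshold in any comparison. Over virgin cells the mean was higher for 61 of 76 mitochondrial ribosomal proteins (median 0.23), for all 17 genes of pyruvate dehydrogenase and the citric acid cycle (0.20), for 33 of 39 assembly factors and other subunits (0.20) and for 11 of 14 genes of mitochondrial DNA maintenance and transcription (0.21). It was higher for 18 of 20 import, porin and chaperone genes (0.12) and for 6 of 8 inner membrane carriers and uncoupling proteins (0.22). Coenzyme Q synthesis genes (7 of 12, median 0.06) and regulators of mitochondrial biogenesis (6 of 11, 0.01) lay near all genes. Over dorsal cells the medians of the 8 lists ran from -0.09 (coenzyme Q synthesis) to 0.16 (carriers).

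Cytochrome c (Cycs), the mobile carrier between complexes III and IV, had signals of 12642 and 9243 in virgin ventral, 11672 and 12280 in dorsal, and 14436 and 16771 in ventral 16 dpc cells (0.53 ± 0.19 over virgin cells; limma, adjusted p = 0.34). Cyc1, its docking subunit in complex III, which the symbol rule leaves out, gave 4415 and 4094, 4887 and 5074, and 5557 and 5691 in the same order, with no overlap between groups (0.40 ± 0.14; limma, adjusted p = 0.33). Mrpl33, a protein of the large mitochondrial ribosomal subunit, had the smallest adjusted p of the lists, 0.094 in limma, with 2699 and 2314 in virgin ventral, 2808 and 2684 in dorsal, and 4266 and 5524 in ventral 16 dpc cells. Its log2 fold changes were 0.96 ± 0.17 over virgin and 0.82 ± 0.17 over dorsal cells, the latter with an adjusted p of 0.29 in limma. The chaperones Hspa9 and Hspd1 gave 0.56 ± 0.15 and 0.52 ± 0.15 over virgin cells, and Pprc1, a coactivator of mitochondrial genes, gave 0.68 ± 0.19. Other genes of smallest p per list lay higher over virgin cells: Coq6, Coq7, Dlat, Dld, Fh1, Lrpprc, Mrpl13, Mrps11, Pdhx, Slc25a4, Slc25a20 and Top1mt. Lower were Coq8a, Esrra, Polg2, Ppara, Sco2, Timm44 and Twnk. Coq8a gave -0.54 ± 0.19 over virgin and -0.49 ± 0.19 over dorsal cells. Ppara gave -0.94 ± 0.49 over virgin and Sco2 -0.54 ± 0.23 over dorsal cells. NRF1 itself (Nrf1) gave -0.05 ± 0.23 over virgin and -0.46 ± 0.23 over dorsal cells (limma, adjusted p = 0.9999 over dorsal cells). Its ventral 16 dpc signals (250 and 227) lay below both dorsal signals (312 and 347). In dorsal 16 dpc over virgin cells the Nrf1 value was 0.42 ± 0.23. Ucp3, an uncoupling protein at signals of 41.6 to 104, gave -1.01 ± 0.39 over virgin cells.

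**Figure D5:**
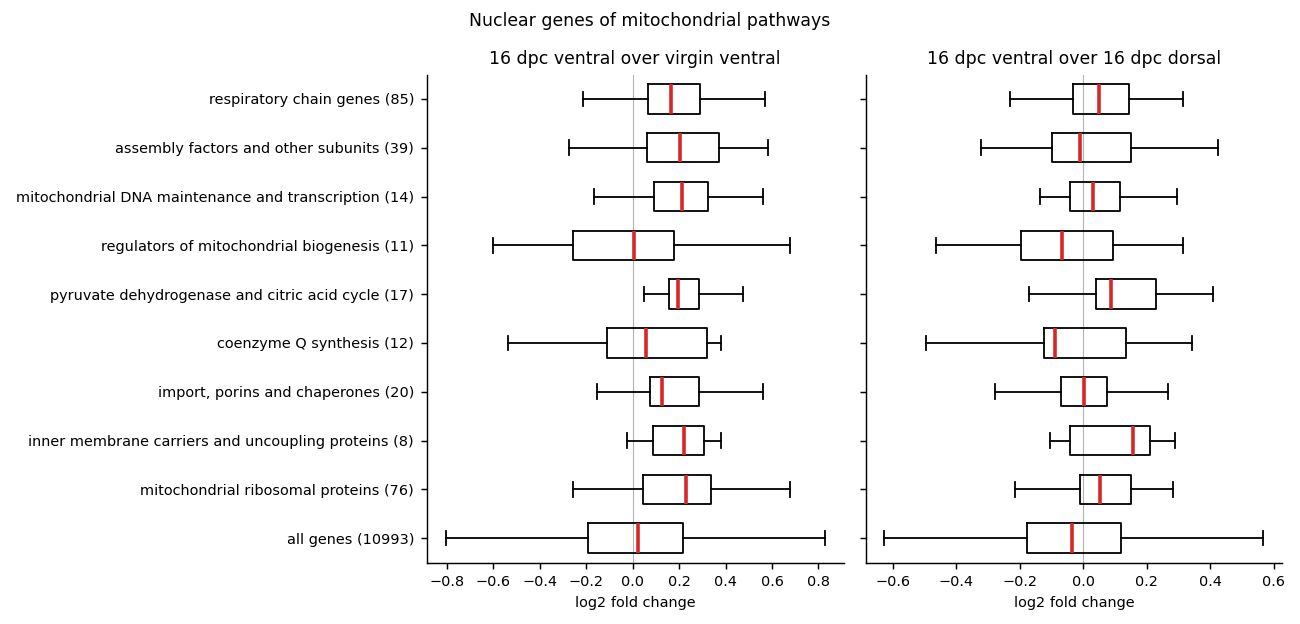
Log2 fold change (horizontal axis) of genes in the respiratory chain, in 8 other mitochondrial lists and in all genes tested (number of genes in brackets), in 16 dpc ventral over virgin ventral cells (left) and over 16 dpc dorsal cells (right). Boxes span the quartiles, red lines are medians and whiskers reach 1.5 box lengths, with points beyond them not drawn. On the left the respiratory chain has a median of 0.17, and regulators, coenzyme Q synthesis and all genes have medians near 0.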

How the data were processed

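RNA of 6 pools of sorted basal cells was hybridised to 3′ expression arrays. The deposited files hold, per probe set, a signal intensity made by the authors with Affymetrix Expression Console version 1 (submitters' processing notes), scaled by MAS5 to a common trimmed mean, so that a change in total RNA per cell is not seen. No genome build was used for the arrays. A floor of 1 was set before log2, without further normalization. Symbols came from the platform annotation, where 34945 probe sets name 1 gene. The probe set of highest mean log2 signal stood for a gene, and 51 members had several. Kept were 10993 genes called present on both arrays of 1 or more groups. Differences were tested with limma 3.58.1 (lmFit, eBayes with trend) in R 4.3.3 over all 6 arrays (two-sided; Benjamini-Hochberg over the genes kept, threshold 0.05), and the steps were tested on simulated data. Alternatives covered normalization, filter, floor, probe set choice, variance trend, replicate block and arrays left out. Named were the catalytic subunits and isoform pairs. Named too were, per complex, the 3 members of smallest p in both ventral comparisons, and the 3 most positive and negative values. Of each list the 2 genes of smallest p in either ventral comparison were named, with values for some of them. The members and lists were chosen with earlier results of these data known. Cox7b, and 8 symbols found only on probe sets of several genes, among them Ndufa11 and Ndufs6, were not analysed here, nor were protein sequences.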

Additional observations from a re-analysis of the deposited data

How the results depend on the processing

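Both the counts of genes called over all genes and the members' values moved with the settings. Genes called in ventral 16 dpc over virgin cells numbered 22, and 86 with a replicate block, 0 without a variance trend, 5 with the mean of all probe sets, 115 without the 2 arrays whose actin ratio was high, and 1 to 59 with 1 array left out. Over dorsal cells they numbered 9, and 16 with the replicate block, 1 without the trend, 0 with the mean of probe sets, 24 without the high-ratio arrays, and 0 to 7 with 1 array left out. In dorsal 16 dpc over virgin cells they numbered 0, and 7 after quantile normalization, 11 with the replicate block, 5 with genes present on all 6 arrays, 1 without shared probe sets, 62 without the high-ratio arrays, and 0 to 33 with 1 array left out. The cause was not tested. Respiratory chain genes called remained 0 under all alternatives run, the replicate block included, with these exceptions: 1, Atp5md, over dorsal cells (range 0 to 1 with 1 array left out; 1.62 without dorsal replicate 1) and 1, Ndufa4l2, in dorsal 16 dpc over virgin cells without the high-ratio arrays (-1.36; limma, adjusted p = 0.0379, against 0.0379 to 0.994 over the alternatives). Where an arm has 1 array left, it was assumed to vary like the other groups. The members' median log2 fold change ran from 0.11 to 0.24 over virgin cells, from 0.003 to 0.11 over dorsal cells and from 0.09 to 0.18 in dorsal 16 dpc over virgin cells with 1 array left out, and the other alternatives lay within these ranges. It was unchanged by the replicate block. Members at an unadjusted p under 0.05 in limma over virgin cells numbered 8, and 12 after quantile normalization, where the share of all genes was not taken. Members with a higher mean over dorsal cells numbered 58 of 85, and 45 without dorsal replicate 1 or ventral 16 dpc replicate 2. Same-numbered arrays share only a number and a header prefix: their deviations from the group means correlated at 0.45 between the 16 dpc groups and at 0.03 and 0.01 with virgin arrays. Signal over background limits Cox4i2, Cox6a2, Cox7a1, Cox7b2 and Cox8b, which were not tested.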
